A study of Mus musculus with 6 samples.

Results

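The genes described here build the hair shaft and the sheath that moulds it, and they were measured in mouse skin that had received one of 2 drug gels. They were chosen by name: 31 symbols of hair keratins, inner root sheath keratins and follicle structural genes, of which 30 had a row among the 57010 genes of the deposited table. The other symbol was not analysed here. The 30 genes are 8 inner root sheath keratins (Krt25 to Krt28 and Krt71 to Krt74), the companion layer keratin Krt75, 15 hair shaft keratins and 6 other genes (Tchh, Padi3, Padi1, S100a3, Dsg4 and Gprc5d). In GENCODE M21 (GRCm38), 13 of them lie on chromosome 11 in the type I keratin cluster and 11 on chromosome 15 in the type II cluster. Krt25 to Krt28 span chr11:99315516-99374903, the type I shaft genes from Krt33a to Krt36 chr11:100011195-100105626, the type II shaft genes from Krt87 to Krt82 chr15:101431038-101550667, Krt75 chr15:101563345-101573904, and Krt71 to Krt73 chr15:101733949-101802346.

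Skin RNA was sequenced at the close of a diabetic ulcer experiment, 1 library per mouse, in wild-type (WT) mice kept free of specific pathogens. The skin of 3 mice received a gel with CST, which stands for cortistatin in the series title, a neuropeptide related to somatostatin. The skin of the other 3 received a gel with Yoda1, a small molecule that opens the mechanosensitive ion channel Piezo1. The sources used here do not give strain, age, dose, day of sampling or how the mice were made diabetic, and skin without either drug was not analysed here, so every value sets one treatment against the other. The labels name the tissue as skin and also tag it as keratinocytes. Krt14 and Krt5, which mark basal keratinocytes, were abundant in all 6 libraries (Krt14 5835 to 14601 FPKM), but transcripts of muscle, fat, macrophages and neutrophils were present too, so the libraries were read as whole skin.

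Hair follicles cycle between growth (anagen), regression (catagen) and rest (telogen). In anagen, matrix cells at the base of the follicle give rise to concentric layers: the medulla, cortex and cuticle of the shaft, the cuticle, Huxley and Henle layers of the inner root sheath, and the companion layer that separates that sheath from the outer root sheath. Each layer carries its own pairs of a type I (acidic) and a type II (basic) keratin, and the inner root sheath and shaft keratins are made mainly while the follicle grows. Trichohyalin (Tchh) fills inner root sheath and medulla cells, and the enzymes Padi1 and Padi3 convert its arginines to citrulline before it is cross-linked.

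The DNA just before the start of these genes is shown for 2 type I and 2 type II keratins of the inner root sheath, to set these partners beside each other, and for 2 shaft keratins, Krt32 with motif matches in the stretch printed and Krt84 with none. RefSeq (GRCm38.p6) gave a window of 250 bases before to 50 after the start for 22 of the 30 genes, 7 of them inner root sheath and 9 hair shaft keratins. Each line below holds the last 150 bases before the RefSeq start, 5′ to 3′ along the gene's strand. Capitals mark matches, on either strand, to any of the 6 motifs searched. The core promoter element known as the TATA box was searched as TATAAA. Sites of the Wnt effectors Lef1 and Tcf were searched in one form as CTTTGAA. The other form of those Wnt effector sites was searched as CTTTGTT. Homeobox factor sites of the Hox kind were searched first as TTTATNG. The second homeobox form, differing in a single base, was searched as TTTACNG. Zinc finger factors of the Gata family were searched by the letters GATAAG.
Krt25, chr11:99322952-99323101, minus strand: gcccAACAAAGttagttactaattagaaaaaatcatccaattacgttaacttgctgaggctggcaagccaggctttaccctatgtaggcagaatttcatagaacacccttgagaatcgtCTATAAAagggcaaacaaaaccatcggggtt
Krt28, chr11:99374904-99375053, minus strand: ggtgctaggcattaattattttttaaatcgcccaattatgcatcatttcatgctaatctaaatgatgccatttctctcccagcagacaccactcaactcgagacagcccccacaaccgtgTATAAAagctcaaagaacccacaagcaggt
Krt71, chr15:101743098-101743247, minus strand: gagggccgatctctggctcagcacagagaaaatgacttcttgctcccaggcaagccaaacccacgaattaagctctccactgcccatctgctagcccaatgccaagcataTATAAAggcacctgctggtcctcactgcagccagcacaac
Krt73, chr15:101802361-101802510, minus strand: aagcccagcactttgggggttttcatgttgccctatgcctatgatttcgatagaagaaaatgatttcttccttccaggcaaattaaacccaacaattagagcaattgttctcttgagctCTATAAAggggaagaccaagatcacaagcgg
Krt32, chr11:100088270-100088419, minus strand: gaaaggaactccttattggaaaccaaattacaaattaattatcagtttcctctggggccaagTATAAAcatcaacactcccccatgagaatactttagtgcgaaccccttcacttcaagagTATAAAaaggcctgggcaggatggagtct
Krt84, chr15:101532821-101532970, minus strand: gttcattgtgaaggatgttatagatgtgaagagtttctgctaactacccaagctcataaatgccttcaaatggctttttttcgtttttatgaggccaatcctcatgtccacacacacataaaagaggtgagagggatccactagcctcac
The TATAAA letters stood within the window of 7 of 7 inner root sheath keratins and 6 of 9 hair shaft keratins, against 13.6% of all 32851 promoter windows. In Krt72 and Krt84 they were found only on the opposite strand, beginning at positions -203 and -206, counted from the start. They began at position -30 in Krt25, Krt26, Krt28 and Krt73. In Krt25, Krt26 and Krt73 the TTTATNG match on the opposite strand overlaps that TATAAA match, so both count the same letters. CTTTGAA was in 5 of 9 shaft windows (Krt31, Krt32, Krt33b, Krt34 and Krt39) and 1 of 7 inner root sheath windows (Krt28), against 5.14% of all windows. In Krt32 that match began at position -247, outside the stretch printed. CTTTGTT was in Krt25 only of these 16 windows (5.85% of all). TTTATNG was in 4 of 7 inner root sheath and 5 of 9 shaft windows (10.9% of all), TTTACNG in 0 and 1 (9.11%), and GATAAG in 2 (Krt71 and Krt73) and 1 (Krt32, 7.44%). Windows of neighbouring keratin genes share ancestry, and a match is a string of letters, not a measured binding site.

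Depth was 23791352 to 29620526 reads per library, so that a single read over 1 kb adds 0.0338 to 0.042 FPKM (fragments per kilobase of gene, scaled to mapped depth), and read figures cover counting error only. The mitochondrial share of summed FPKM was 6.72% for CST mouse 1, 7.61% for Yoda1 mouse 3 and 3.25% to 3.81% for the remaining 4. CST mouse 1 and Yoda1 mouse 3 were also the libraries with the lowest inner root sheath levels of their groups. Whether the mitochondrial share has a part in those levels was not tested, so results are given with and without these 2 libraries where they rest on them. The labels give each library its own mouse, and none gives a batch.

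Inner root sheath and shaft transcripts were higher on average in CST skin, but mice of the same group differed widely. The 8 inner root sheath keratins together reached 1.56, 167 and 560 FPKM in CST mice 1, 2 and 3 and 17.3, 24.7 and 0.407 FPKM in Yoda1 mice 1, 2 and 3. CST mice 2 and 3 stood above the other 4, but CST mouse 1 lay below Yoda1 mice 1 and 2, so the groups overlapped. The highest library held 1375 times the level of the lowest, and CST mouse 3 alone held 72.7% of the total over the 6 libraries. The group means were 243 ± 287 FPKM in CST and 14.1 ± 12.5 FPKM in Yoda1 (SD, n = 3), a ratio of 17.2 with a CST SD larger than its mean. The 15 hair shaft keratins summed to 8.88, 29.2 and 94 FPKM in CST mice and 3.97, 8.59 and 3.16 FPKM in Yoda1 mice, a ratio of means of 8.4 (44 ± 44.4 against 5.24 ± 2.93 FPKM, SD, n = 3). All 3 CST sums lay above the 3 Yoda1 sums, CST mouse 1 by a narrow margin over Yoda1 mouse 2. In bulk skin, fewer cells of a layer and less RNA per cell cannot be told apart.

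**Figure D1:**
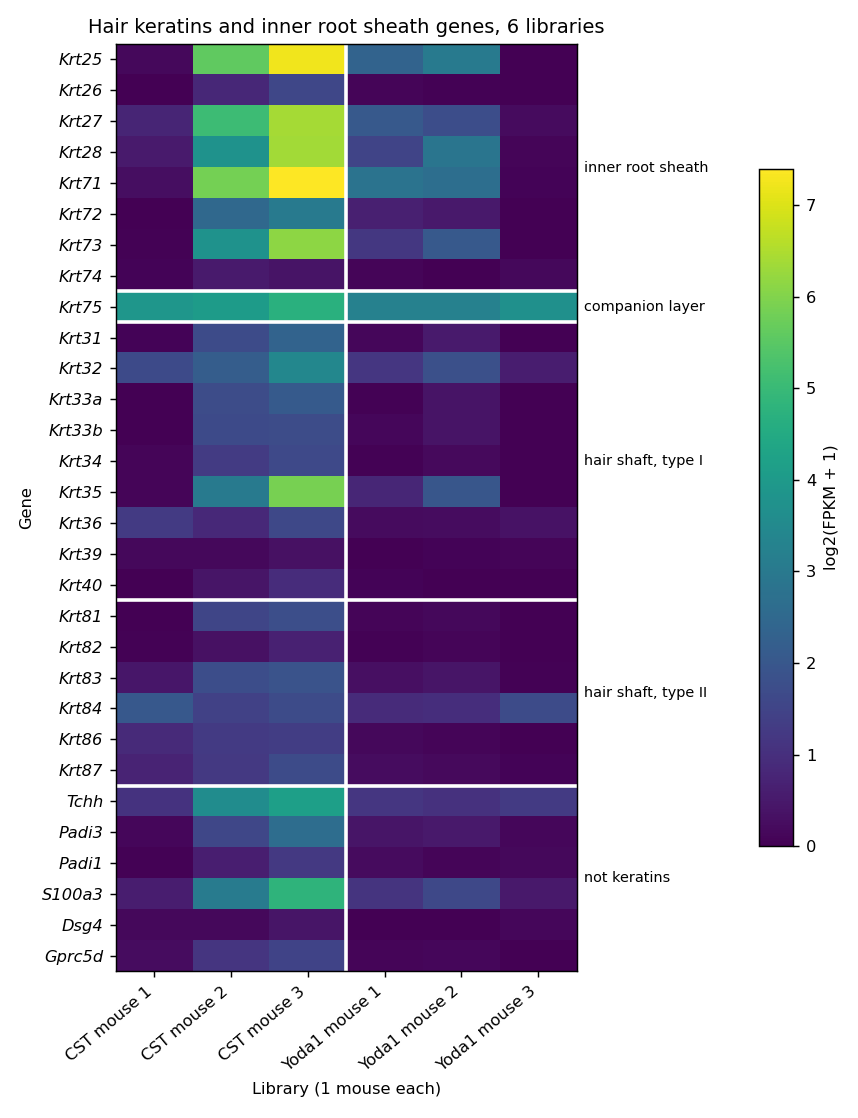
Heat map of log2(FPKM + 1) for each of the 30 genes (rows, grouped by layer) in each of the 6 libraries (columns). CST mice 2 and 3 held the highest values of 28 of the 30 genes, and 14 genes were listed at 0 in Yoda1 mouse 3.

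Of the 4 type I keratins of the inner root sheath, Krt25, which is altered in the curly-coated Rex mouse, measured 0.125, 47 and 148 FPKM in CST mice 1 to 3 and 4.16, 7.08 and 0 FPKM in Yoda1 mice 1 to 3. Behind these values stood 6, 2589 and 8555 reads in CST and 245, 413 and 0 reads in Yoda1. The 0 in Yoda1 mouse 3 allows a level of up to 0.0634 FPKM (3 reads). Krt25 was thus high in 2 CST libraries, intermediate in 2 Yoda1 libraries and near or at 0 in 1 library of each group. Krt27, made in all inner root sheath layers, measured 0.696, 32.8 and 83.8 FPKM in CST and 3.16, 2.38 and 0.163 FPKM in Yoda1. Krt28, its close neighbour on chromosome 11, measured 0.434, 12.6 and 82.2 FPKM in CST and 1.87, 6.28 and 0.0776 FPKM in Yoda1. Both showed the order of libraries seen for Krt25, apart from the order of Yoda1 mice 1 and 2 for Krt27. Krt26, a keratin of the sheath's cuticle, stayed at or below 1.95 FPKM in all 6 libraries and was listed at 0 in CST mouse 1 and Yoda1 mouse 3.

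Of the type II partners, Krt71, whose mutation gives the Caracul mouse its wavy coat, measured 0.209, 56.1 and 167 FPKM in CST and 6.07, 5.35 and 0.0577 FPKM in Yoda1, from 11, 3395 and 10631 reads against 393, 343 and 3 reads. It had the highest mean level of all 30 genes (39.2 FPKM). Krt73, a keratin of the sheath's cuticle, measured 0.0383, 12.5 and 68.9 FPKM in CST and 1.31, 3.19 and 0 FPKM in Yoda1. Krt72, which is made in the same cuticle, measured 0, 4.6 and 7.28 FPKM in CST and 0.557, 0.409 and 0 FPKM in Yoda1. In each of these genes CST mice 2 and 3 were above the other 4 libraries, and both Yoda1 mice 1 and 2 were above CST mouse 1. Krt74, a Huxley layer keratin in humans that GENCODE M21 lists as a transcribed unitary pseudogene in the mouse, stayed at or below 0.446 FPKM, with at most 19 reads in a library.

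The proportions of the inner root sheath keratins were compared in the 4 libraries where they were abundant. Krt71 made up 33.6% and 29.9% of their summed FPKM in CST mice 2 and 3 and 35.2% and 21.6% in Yoda1 mice 1 and 2, and Krt25 made up 28.2%, 26.4%, 24.1% and 28.6% in the same order. The ratio of type I to type II sums was 1.27 and 1.3 in CST mice 2 and 3 and 1.16 and 1.76 in Yoda1 mice 1 and 2. Other major genes varied more: Krt27 made up 19.7%, 15%, 18.3% and 9.61% in that order, Krt73 7.47%, 12.3%, 7.58% and 12.9%, and Krt28 7.55%, 14.7%, 10.8% and 25.4%. The ratio was 4.17 in CST mouse 1 and 1.44 in Yoda1 mouse 3, where it rests on 64 and 16 reads in all.

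**Figure D2:**
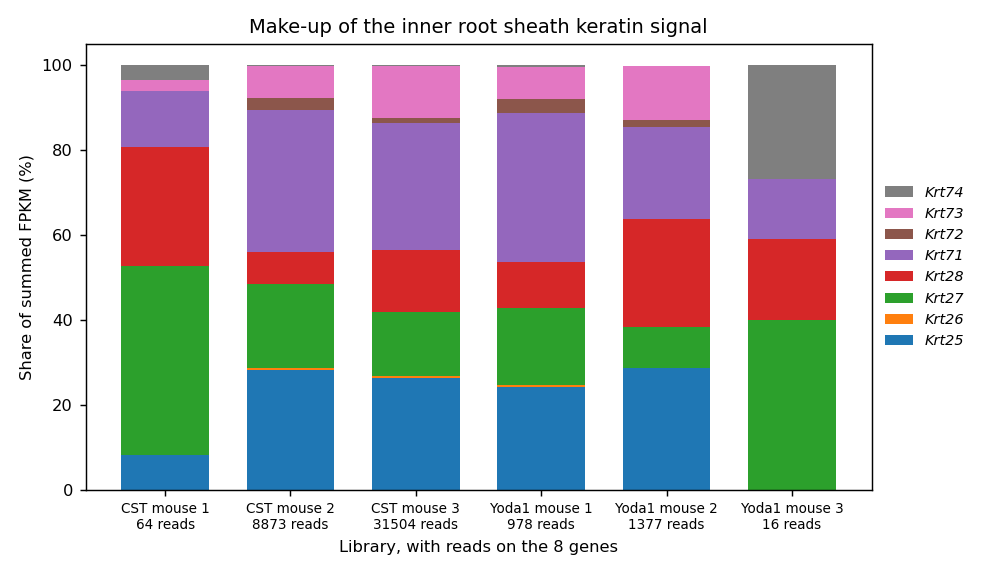
Share of the summed FPKM of the 8 inner root sheath keratins taken by each of them, in percent, for each library. Krt71 took 21.6% to 35.2% and Krt25 24.1% to 28.6% in the 4 libraries with 978 reads or more, and the bars of CST mouse 1 and Yoda1 mouse 3 rest on 64 and 16 reads.

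Among the shaft keratins, Krt35, one of the first to be made in the matrix and lower cortex, measured 0.0806, 7.28 and 57.4 FPKM in CST and 0.738, 2.97 and 0 FPKM in Yoda1. It followed the library order of the inner root sheath keratins, with 83.8% of its 6-library total in CST mouse 3. It formed 61.1% of the shaft sum in CST mouse 3 and 25% in CST mouse 2. Krt32, a keratin of the shaft's cuticle, measured 2.17, 3.52 and 9.78 FPKM in CST and 1.25, 2.49 and 0.496 FPKM in Yoda1, and the groups overlapped in CST mouse 1 and Yoda1 mouse 2. Krt31, a cortex keratin, measured 0.0525, 2.24 and 4.09 FPKM in CST and 0.0854, 0.453 and 0 FPKM in Yoda1. The related cortex genes Krt33a, Krt33b and Krt34 had means of 0.99, 0.803 and 0.634 FPKM and reached at most 3.29 FPKM, with CST mice 2 and 3 above the rest in each. These 4 genes are closely related neighbours, so reads may be split between them in a way that the sources used here do not give. Krt40 and Krt39, keratins of late shaft differentiation, stayed at or below 0.918 and 0.268 FPKM.

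Krt36 differed from its neighbours in CST mouse 1. It measured 1.41, 0.799 and 2.04 FPKM in CST (57, 37 and 99 reads) and 0.162, 0.184 and 0.277 FPKM in Yoda1 (8, 9 and 11 reads), and the groups did not overlap. Its level in CST mouse 1 was above that in CST mouse 2, whereas Krt35 was lower there by far.

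The type II shaft keratin Krt83, made in the cortex, measured 0.355, 2.37 and 2.72 FPKM in CST and 0.241, 0.34 and 0.03 FPKM in Yoda1. The groups did not overlap, but CST mouse 1 exceeded Yoda1 mouse 2 only after scaling for depth, with 12 against 14 reads. Krt86, also of the cortex, measured 0.824, 1.4 and 1.56 FPKM in CST and 0.12, 0.0695 and 0 FPKM in Yoda1, and Krt87 measured 0.655, 1.33 and 2.22 FPKM against 0.193, 0.135 and 0.0554 FPKM. Neither overlapped between groups. Krt81, another cortex keratin, reached 1.92 and 2.44 FPKM in CST mice 2 and 3, was listed at 0 in CST mouse 1 and Yoda1 mouse 3, and stayed at or below 0.109 FPKM in the other Yoda1 libraries. Krt81, Krt83 and Krt86 are also close copies whose reads may be shared. Krt82, a cuticle keratin, stayed at or below 0.604 FPKM.

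Krt84, known from the tongue's filiform papillae more than from hair, went its own way. It measured 3.1, 1.71 and 2.23 FPKM in CST and 0.88, 0.958 and 2.22 FPKM in Yoda1, with 112, 71 and 97 against 39, 42 and 79 reads. It was highest in CST mouse 1 and, within Yoda1, in mouse 3, the libraries with the least inner root sheath RNA, and made up 34.9% and 70.2% of the shaft sum there against 2.38% in CST mouse 3. Krt36 and Krt84 were the 2 exceptions among the 15 shaft keratins to CST mice 2 and 3 both exceeding the other 4 libraries. Without these 2 genes, left out because of these values, the shaft sums were 4.36, 26.7 and 89.7 FPKM in CST and 2.93, 7.45 and 0.663 FPKM in Yoda1, and CST mouse 1 lay below Yoda1 mouse 2, an order that leaving out genes high in CST mouse 1 favours.

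**Figure D3:**
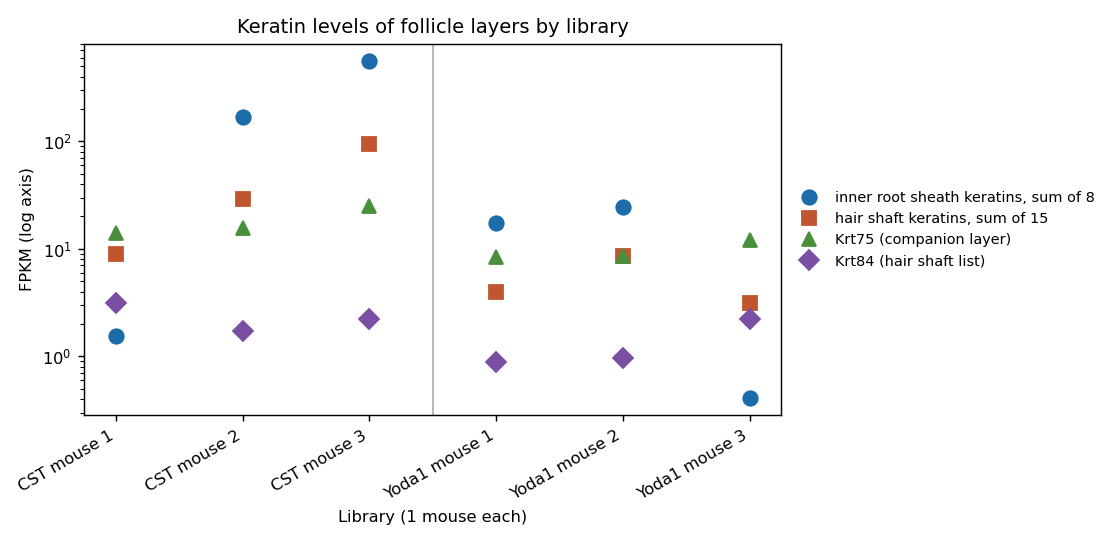
Summed FPKM (log scale) of the inner root sheath keratins and of the hair shaft keratins, and the FPKM of Krt75 and Krt84, with 1 point per library and list. The inner root sheath sum spans 0.407 to 560 FPKM, the shaft sum 3.16 to 94 FPKM, Krt75 8.47 to 24.8 FPKM and Krt84 0.88 to 3.1 FPKM.

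The inner root sheath and shaft keratins were not in a fixed ratio. Inner root sheath RNA exceeded shaft RNA by 5.71 and 5.96 times in CST mice 2 and 3 and by 4.35 and 2.88 times in Yoda1 mice 1 and 2. The ratio was 0.175 in CST mouse 1 and 0.129 in Yoda1 mouse 3, where shaft keratins were the more abundant. Krt84 formed 34.9% and 70.2% of the shaft sum in these libraries. Without Krt36 and Krt84 their shaft sums were 4.36 and 0.663 FPKM, beside inner root sheath sums of 1.56 and 0.407 FPKM. Those inner root sheath sums rest on 64 and 16 reads. Between the highest and the lowest library the shaft sum differed 29.7-fold and the inner root sheath sum 1375-fold. The shaft value rests on Krt84, and was 135-fold without Krt36 and Krt84. The median log2 change, CST minus Yoda1 on log2(FPKM + 1), was 2.37 over the 6 inner root sheath keratins tested and 1.15 over the 5 shaft keratins tested (2.14 over all 8 and 1.02 over all 15), beside -0.01 over all 14588 genes tested. That gives a shaft minus inner root sheath difference of -1.22. This difference depends on the scale, because the added 1 FPKM damps changes of low genes: it was -0.44 with 0.1 FPKM added and -0.22 with limma-voom on recovered reads. It ran from -2.5 without CST mouse 1 to -0.31 without CST mouse 3. The difference is given without a test, because the members of both lists were chosen with earlier results of these data known.

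Krt75 of the companion layer spanned a narrower range, 2.93-fold between its highest and lowest library. It measured 13.9, 15.5 and 24.8 FPKM in CST and 8.47, 8.54 and 12 FPKM in Yoda1. The means were 18.1 ± 5.86 and 9.67 ± 2.02 FPKM (SD, n = 3), and all 3 CST libraries stood above all 3 Yoda1 libraries. Its log2 change of 0.81 (SE 0.27) did not pass the threshold (limma, Benjamini-Hochberg adjusted p = 0.793). In CST mouse 1 and Yoda1 mouse 3, Krt75 held 1097 and 932 reads while Krt71 held 11 and 3.

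Of the 6 genes that are not keratins, Tchh measured 1.12, 11 and 16.9 FPKM in CST and 1.27, 1.08 and 1.37 FPKM in Yoda1, so CST mouse 1 lay within the Yoda1 range and the other 2 CST libraries far above it. Padi3 measured 0.104, 1.96 and 5.3 FPKM in CST and 0.328, 0.428 and 0.105 FPKM in Yoda1. S100a3, a calcium-binding protein of the hair cuticle that Padi3 citrullinates, measured 0.505, 7.51 and 26.8 FPKM in CST and 1.14, 2.05 and 0.433 FPKM in Yoda1. All 3 had their highest values in CST mice 2 and 3 and overlapped between groups in CST mouse 1. Padi1 reached at most 1.36 FPKM. On the opposite strand an annotated gene overlaps 1200 of the 3754 exon bases of Padi1 and 249 of 1721 in Krt32. Such overlaps cover 129 of 3266 in Krt75 and 117 of 5660 in S100a3. Reads of the 2 strands cannot be told apart where strandedness is not given. Another annotated gene overlaps 144 exon bases of S100a3 on the same strand. The lengths behind the FPKM, as recovered, were shorter than these exon bases for S100a3 (1067) and Krt32 (1355), so the overlap can weigh more there. Dsg4, the desmosomal cadherin altered in lanceolate hair mice, measured at most 0.347 FPKM, and Gprc5d, an orphan receptor of the shaft cortex, at most 1.81 FPKM. The groups did not overlap for Dsg4 (9, 12 and 35 reads against 1, 1 and 8) or for Gprc5d (6, 45 and 70 against 3, 4 and 0).

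No member passed the test of CST against Yoda1. With limma on log2(FPKM + 1), 0 of the 15 members averaging 1 FPKM or more had an adjusted p under 0.05, against 0% of all 14588 genes tested. The other 15 members did not reach that mean. At a lower minimum of 0.1 FPKM all 30 members entered, 0 passed, and again 0% of 20928 genes did. At an unadjusted p under 0.05 there were 584 of 14588 genes at the first minimum and 1013 of 20928 at the second. Limma-voom on recovered reads called 0 of 14588 genes, with 585 at an unadjusted p under 0.05. The call did depend on how libraries were weighted. With weights estimated by limma, 14 of the 15 tested members passed, all but Krt28, and so did 1348 of all 14588 genes tested. The smallest adjusted p of a member was 0.0168 (limma with library weights). The Yoda1 weights were 12.8, 0.657 and 0.193 for mice 1, 2 and 3, so in that setting the Yoda1 side rested mostly on mouse 1. The CST weights were 0.305, 2.47 and 0.822 for mice 1, 2 and 3, so CST mouse 1 counted least in its group. The largest log2 changes were those of Krt27 (2.74, SE 1.30), Krt71 (2.64, SE 1.69) and Krt25 (2.53, SE 1.67), each with an adjusted p of 1. The smallest adjusted p of the members was that of Krt75, given above, followed by Krt83 (log2 change 1.10, SE 0.39, adjusted p = 0.868). At the lower minimum it was that of Krt86 (log2 change 1.07, SE 0.17, adjusted p = 0.445), followed by Krt36 (0.97, SE 0.21, 0.524) and Krt87 (1.04, SE 0.24, 0.536).

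The direction was the same in all members and the overlap was not. By mean log2 value 30 of 30 members were higher in CST, with a median change of 1.06, against 49.7% of the 20928 genes. In 8 of 30 members (26.7%) all 3 CST values lay above all 3 Yoda1 values, as they did in 5.47% of the 20928 genes. These were Krt75, Krt36, Krt39, Krt83, Krt86, Krt87, Dsg4 and Gprc5d. None had all Yoda1 values above CST (0 of 30, against 2.33% of genes). The 8 included 0 of 8 inner root sheath keratins and 5 of 15 shaft keratins. Some of them separated by few reads: Krt39 had 4, 5 and 12 reads in CST against 0, 2 and 3 in Yoda1. The reads of Krt83 and Dsg4, also close between groups, are given above. At an unadjusted p under 0.05, 11 of 30 members (36.7%) were higher in CST, against 3.82% of genes at the lower minimum. Members were highest together in the same libraries, so these counts are not independent of each other. Without CST mouse 1 the groups did not overlap for 29 of 30 members (all but Krt84), against 14.3% of genes. Leaving out any other single library gave 8 to 11 of 30 members, against 8.03% to 11.9% of genes, with 0 of 8 inner root sheath keratins each time. Without CST mouse 1 and Yoda1 mouse 3, the libraries of high mitochondrial share, they did not overlap for 30 of 30, against 23.3% of genes, and limma called 0 genes (1818 at an unadjusted p under 0.05). Leaving these libraries out was chosen after their values were seen.

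**Figure D4:**
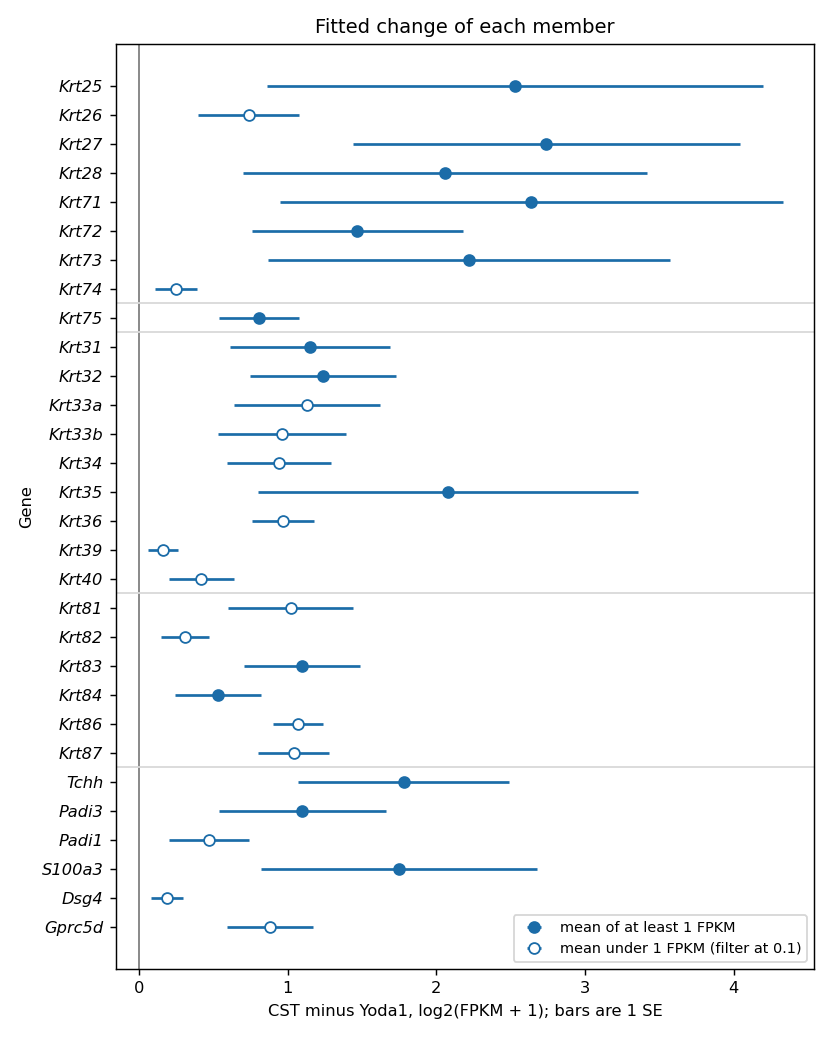
Log2 change of each of the 30 genes, CST minus Yoda1 on log2(FPKM + 1), with bars of 1 SE (limma). Points of the 15 genes averaging 1 FPKM or more come from the main fit and the others from the fit at 0.1 FPKM; all lie above 0, and the inner root sheath keratins Krt25 and Krt71 have the widest bars (1.67 and 1.69).

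Transcription factors and signals of the hair matrix were set beside the structural genes. Of the 15 regulators listed, 14 were tested, 14 of 14 were higher in CST by mean log2 and 0 passed, with a median log2 change of 0.68 against -0.01 over all genes. The 3 most abundant were Gata3, an inner root sheath lineage factor (179, 186 and 296 FPKM in CST, 121, 200 and 76 in Yoda1), Hr, the hairless corepressor (80.4, 103 and 100 against 65.1, 68.9 and 136), and Ovol1 (49.1, 50.1 and 71.1 against 33.5, 22.9 and 65.7). All 3 overlapped between groups. Chosen after their values were seen, Dlx3 and Hoxc13, homeobox factors of the differentiating shaft, were high in CST mouse 3. Dlx3 measured 7.7, 13.8 and 54.1 FPKM in CST and 7.1, 6.66 and 6.77 in Yoda1. Hoxc13 measured 3.61, 2.96 and 14.9 FPKM in CST and 1.78, 1.15 and 1.84 in Yoda1. Lef1, the Wnt effector of the matrix, chosen in the same way, measured 0.425, 1.86 and 10.2 FPKM in CST and 1.04, 1.23 and 0.172 in Yoda1, with CST mouse 1 and Yoda1 mouse 3 lowest as for the inner root sheath keratins.

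Keratin-associated proteins, which cross-link shaft keratins late in hair formation, summed to 59.6, 59.3 and 90.9 FPKM in CST and 12, 9.38 and 1.24 FPKM in Yoda1 over 58 genes, of which 53 were above 0 in some library. The near equal sums of CST mice 1 and 2 came from different genes. The 18 genes higher in CST mouse 1 than in CST mouse 2 summed to 43.8, 4.09 and 7 FPKM in CST mice 1, 2 and 3, and the 33 genes lower there summed to 15.9, 55.3 and 83.4 FPKM, a split chosen on these values. All CST values lay above all Yoda1 values in 20 of the 39 genes with a mean of 0.1 FPKM or more, beside the 5.47% of all genes given above. Of the genes tested 8 of 8 were higher in CST, beside 47.2% of all genes tested, and 0 passed (median log2 change 1.57). Krtap22-2 measured 15.5, 2.77 and 5 FPKM in CST and was listed at 0 in the 3 Yoda1 libraries (limma, adjusted p = 0.521). Krtap7-1 measured 0.868, 7.67 and 8.76 FPKM against 0.109, 0.0549 and 0 FPKM (adjusted p = 0.561), and Krtap3-2, the most abundant, overlapped between groups (4.83, 7.74 and 13 against 11.2, 6.72 and 0.571 FPKM). Krtap6-5, chosen after its values were seen, measured 6.97 FPKM in CST mouse 1 and at most 0.0706 FPKM in the other 5 libraries. These genes are short and alike, so single values are uncertain where reads are shared.

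Genes listed for the outer root sheath and stem cells had a median change near that of all genes. Krt14 and Krt5 of that list also mark basal keratinocytes, so it does not read the follicle alone. Of 13 outer root sheath and stem cell genes, 8 were higher and 5 lower in CST, 0 passed and the median log2 change was 0.10. All CST values lay above all Yoda1 values in 2 of the 13, beside 5.47% of all genes. These were Sox9 and Lhx2 (log2 changes 0.40 and 0.61), named after their values were seen. The 3 most abundant, Krt14, Krt16 and Krt5, had log2 changes of 0.06, 0.19 and 0.22, and each was highest in Yoda1 mouse 3, the library with the least inner root sheath RNA. Of 10 other structural and cross-linking genes, 8 were higher and 2 lower with 0 passing (median 0.17), led in level by the protease Ctsl, its inhibitor Cst6 and the repetin gene Rptn, with log2 changes of -0.17, 0.40 and 0.08.

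**Figure D5:**
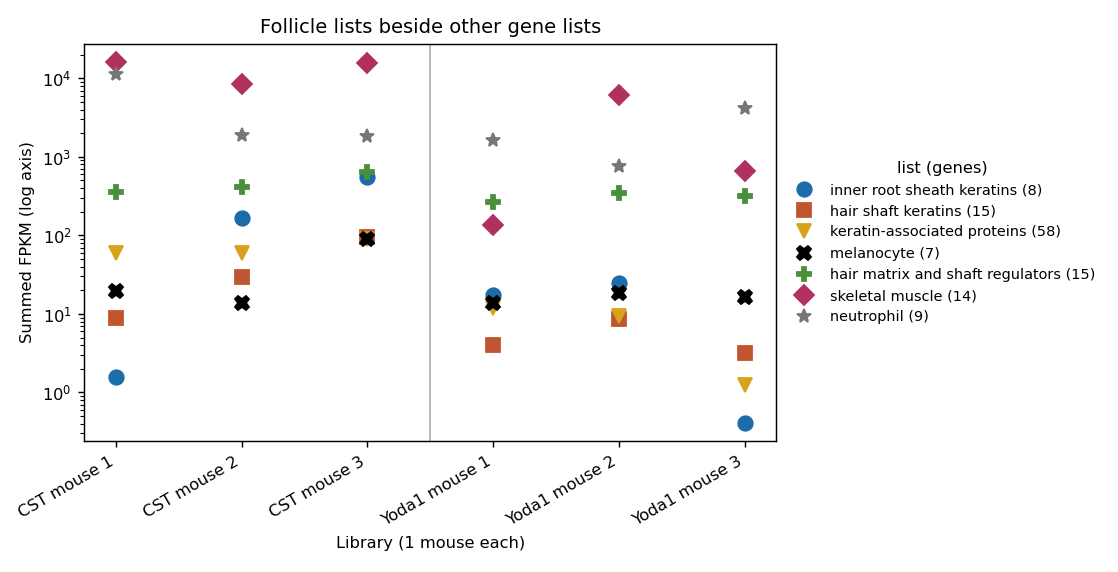
Summed FPKM (log axis) of each gene list in each of the 6 libraries, with 1 point per list and library. Inner root sheath and shaft keratins are highest in CST mouse 3, keratin-associated proteins are high in all 3 CST mice, and skeletal muscle genes are lowest in Yoda1 mice 1 and 3.

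Markers of other skin cells were read in the same libraries. Genes of melanocytes, the pigment cells that sit in the growing hair bulb, summed to 19.4, 13.7 and 90.9 FPKM in CST and 13.9, 18.2 and 16.3 FPKM in Yoda1. CST mouse 3 stood out in them, Dct at 40.8 and Pmel at 25.1 FPKM against at most 9.2 and 4.54 FPKM elsewhere, while CST mouse 2 did not. Dermal papilla genes were 2 higher and 4 lower of 6 tested (median log2 change -0.13), and the proliferation genes had a median of 0.00. Interfollicular epidermis genes were higher in 8 of 8 tested (median 0.45), beside 47.2% of all genes tested. They summed to 4516 to 12476 FPKM in CST and 4447 to 8494 FPKM in Yoda1. Krt2 of that list, too low to be tested and chosen after its values were seen, went the other way. It measured 0.0635, 0.221 and 0.343 FPKM in CST and 0.775, 0.627 and 0.386 FPKM in Yoda1, without overlap. Skeletal muscle genes were higher in CST in 14 of 14 (median 4.02), at 16129, 8432 and 15788 FPKM in CST and 134, 6212 and 662 FPKM in Yoda1. Neutrophil genes were higher in CST in 8 of 8 tested (median 0.97). Of these, S100a8 and S100a9, which stressed keratinocytes also make, summed to 10619 FPKM in CST mouse 1 and 4026 FPKM in Yoda1 mouse 3, the libraries with the least inner root sheath RNA, against 657 to 1657 FPKM in the other 4. The other 7 neutrophil genes were high in CST mouse 1 (625 FPKM) but not in Yoda1 mouse 3 (114 FPKM), against 102 to 256 FPKM elsewhere. Macrophage genes were lower in CST by mean log2 in 7 of 7 (median -0.83), at 1098, 1399 and 1023 FPKM in CST and 2566, 3592 and 820 FPKM in Yoda1. Adipocyte genes were lower in 5 of 5 (median -0.79), with the highest sum in Yoda1 mouse 1 (1379 FPKM against 292 to 426 FPKM in the other 5). Sebaceous gland genes were 5 higher and 2 lower of 7 (median 0.15). No gene of these lists passed the test, and the part of any of these cell types in the hair gene levels was not tested.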

How the data were processed

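Total RNA of skin was sequenced from 6 mice, 3 per treatment, grouped by the sample titles. The authors deposited 1 table of FPKM values for 57010 genes, and every column of values matched a sample. GRCm38 and mm10 are the builds named, per the submitters' processing notes. The sources used here do not give the aligner, the counting tool or the strandedness. Positions are those of GENCODE M21 (GRCm38), matched by Ensembl identifier (52081 found), since the deposited positions are not on that build.

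Whole reads were worked out from the smallest FPKM steps for all 30697 genes above 0 (within 0.001 of a whole number, 99.69% to 99.74% of the depth). They served for read counts, floors of 3 reads and limma-voom. Except at low reads, the smallest gene length that gave whole reads was taken. Reads of a gene that share a common factor would therefore be understated, which may apply to Krt72 (recovered length 667 bases). Values were tested as log2(FPKM + 1) by limma 3.58.1 (R 4.3.3, eBayes with trend, two-sided) over genes averaging 1 FPKM or more, with Benjamini-Hochberg adjustment at 0.05. The test was checked on simulated counts with a fixed, small spread between libraries. That check does not tell how often changes are found at the wider spread of many members here. Changes on this scale understate those of low genes. Sums of FPKM compare genes per length. Motifs were searched in RefSeq promoter windows with Python 3.11.15. Values are given for all members by library where the mean reached 1 FPKM and by range otherwise, with some exceptions named in the text. Of the regulator, other structural, keratin-associated and outer root sheath lists, the 3 genes of highest mean are named. Any others named from them are said to be chosen after their values were seen. Cell type marker lists are given by counts, medians or sums, and the few genes named from them do not follow that rule. The members and gene lists were chosen with earlier results of these data known. Alternatives covered the pseudocount, the filter, scaling, library weights, the trend, a replicate block, voom and leaving out each library. One symbol is not reported here.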

Additional observations from a re-analysis of the deposited data

How the results depend on the processing

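In every setting run the tested members were higher in CST by mean log2 (15 of 15, or 30 of 30 at the lower filters) and no value turned its direction. The count of genes called was 0 of 14588, and 1348 with library weights (655 of them higher in CST); leaving out 1 library gave 0 to 136 genes, 8 without CST mouse 2 and 136 without Yoda1 mouse 2, and no member was among them. The count of members called was 0, and 14 with library weights, which changed the call of these members. The median log2 change of the hair shaft keratins moved from 1.15 to 2.40 with a pseudocount of 0.1 FPKM and to 3.07 with limma-voom on recovered reads, 2 settings in which low values are damped less. Leaving out 1 library, the inner root sheath median ran from 0.97 without CST mouse 3 to 4.12 without CST mouse 1, and the shaft median from 0.67 without CST mouse 3 to 1.62 without CST mouse 1. Without the 2 libraries of high mitochondrial share, a setting chosen after seeing the data, these medians were 3.51 and 1.46. A replicate block on the mouse numbers gave 0 called genes (680 at an unadjusted p under 0.05) and medians of 2.37 and 1.15. Same-numbered libraries correlated at -0.077, 0.208 and -0.197 in their deviations from the group means. Differently numbered ones ran from -0.343 to 0.344. So few libraries cannot settle whether same-numbered mice shared a source, and the labels give none. In CST the SD exceeded the mean for 11 of 30 members over 3 mice, and members with few reads also carry counting error.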
